A study of Drosophila melanogaster with 51 samples.

Results

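The larvae compared here carried the allele csn51 or the allele csn53 and were taken 72 h after egg deposition, and the measured quantity is the difference between their log2 ratios of mutant over wild type, gene by gene. All arrays with these labels at that age were used, 4 of csn51 and 4 of csn53, which are 8 of the 51 arrays of the study. The study compared Drosophila melanogaster larvae carrying csn4null, csn5null, csn51 or csn53, alleles of the COP9 signalosome subunit genes CSN4 and CSN5, with wild type at 60, 72 and 96 h. Each 2-colour array carried RNA from mutant whole larvae in one dye and, in the other, RNA from age-matched wild type, called w118 in the labels. Mutant RNA of csn51 was in Cy3 on replicate 1 and in Cy5 on replicates 2, 3 and 4, and that of csn53 in Cy3 on replicates 1 and 2 and in Cy5 on replicates 3 and 4. The labels call the arrays of a group biological replicates and do not give the number or sex of the larvae in an extract. The sources used here do not give the zygosity of the larvae or what csn51 and csn53 change in the CSN5 protein. A difference between csn51 and csn53 includes any other genetic difference between the larvae that carry them, and its part was not tested.

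The COP9 signalosome is a multi-subunit protein complex found in animals, plants and fungi. Its CSN5 subunit is a metalloprotease that cuts the ubiquitin-like protein Nedd8 from cullins, and so governs the cycle of activity of the cullin-based ubiquitin ligases. In flies the complex is known for roles in egg development, the growth of photoreceptor axons and larval development. Setting csn51 beside csn53 asks which changes of expression are shared by alleles of one subunit gene and which are not.

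A positive difference means a higher log2 ratio in csn51 and a negative one a higher ratio in csn53. The direction of the deposited ratios is not stated, and it was turned so that CSN4 and CSN5 were low in their own nulls, where their deposited means were 2.34 and 3.23. If that likely direction is wrong, "higher in csn51" reads "higher in csn53" throughout. Differences are given with the standard error of a limma fit over all 51 arrays, which takes 1 spread per gene from all groups and corrects for the dye, so that a fitted difference can depart a little from the difference of the plain means. A gene is called where the adjusted p is under 0.05 over all features tested.

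The 8 arrays were not equally alike. Over all features, with entries of a gene averaged, Pearson's r lay between 0.50 and 0.86 within csn51 and between 0.52 and 0.68 within csn53. It lay between 0.02 and 0.84 for pairs of 1 array of each allele. The lowest of these, 0.02, was that of csn51 replicate 4 with csn53 replicate 4. The arrays numbered 1, 2 and 3 correlated at 0.84, 0.66 and 0.73. Of 72 called genes picked for description, 14 were called again without the 2 arrays numbered 4, namely Rdh1, CG9512, Cpr57A, veil, nbs and Vha55, higher in csn51, and Cyp6a8, Cyp6w1, GstE13, TAF1B, CG10550, Manf, sel and Syp, higher in csn53. The other 58 were not called without those arrays. Among the csn5null arrays, which enter the estimate of the spread, CSN5 was at -0.32 on replicate 3 at 72 h, against -3.98, -4.04 and -3.44 on the other 3. At 96 h it was at -0.01 on replicate 3 and at -1.16 on replicate 4, against -3.84 and -3.11 on replicates 1 and 2. The libraries labelled csn5null with little loss of CSN5 thus go against their label, and values of csn5null at 72 h are given with and without replicate 3. Array medians of the 8 lay between -0.01 and 0.01 and their SDs between 0.587 and 0.703. Precision is limited by having 4 arrays of each allele.

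The differences from wild type overlapped in part between the alleles. Of 6183 features tested, 2134 (34.5%) were called against wild type in csn51, and 1854 of 6187 (30%) in csn53. Of these, 1148 were called in the same direction in both, 12 in opposite directions and 1668 in 1 allele only, 974 in csn51 and 694 in csn53, which by itself shows no difference between the alleles. The difference between the alleles was called for 225 features (3.64%), 83 higher in csn51 (1.34%) and 142 higher in csn53 (2.3%), of which 67 and 113 have a gene name. The median size of a called difference was 0.67, with 54 above 1 and 16 above 2. In 159 of the 225 called features the 4 arrays of one allele all lay above the 4 of the other. Over all features tested this held for 643 of 6183 (10.4%), and 2.57% were both called and separated in this way. The calls and the separation come from the same values, so neither is support for the other.

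Of the 142 features higher in csn53, 70 were called higher than wild type in csn53 and not called in csn51, 46 were called lower in csn51 and not called in csn53, and 14 were lower in both. Of the 83 features higher in csn51, 48 were called higher in csn51 and not called in csn53, 12 were called lower in csn53 alone, and 11 were higher in both. The count of 225 rests on the spread shared over 51 arrays and on the arrays numbered 4: it was 24 in a fit of the 8 arrays alone without a dye term, 6 in that fit with one, and 29 without the 2 arrays numbered 4, where 28 of the 225 were called again. Without those 2 arrays the differences of the 225 were a median of 0.87 times as large as with them. The count was 459 without csn5null replicate 3 at 72 h, replicate 3 at 96 h and replicate 5 at 60 h, and all 225 were among them. Of these csn5null arrays, replicate 5 at 60 h did show a loss of CSN5, at -4.78. The count was 62 without csn53 replicate 4, 95 without csn51 replicate 4, 130 without csn53 replicate 3 and 368 without csn53 replicate 1. All 225 kept their sign in each of these fits, and 47 were called without each of the 8 arrays in turn, 20 higher in csn51 and 27 higher in csn53.

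**Figure D1:**
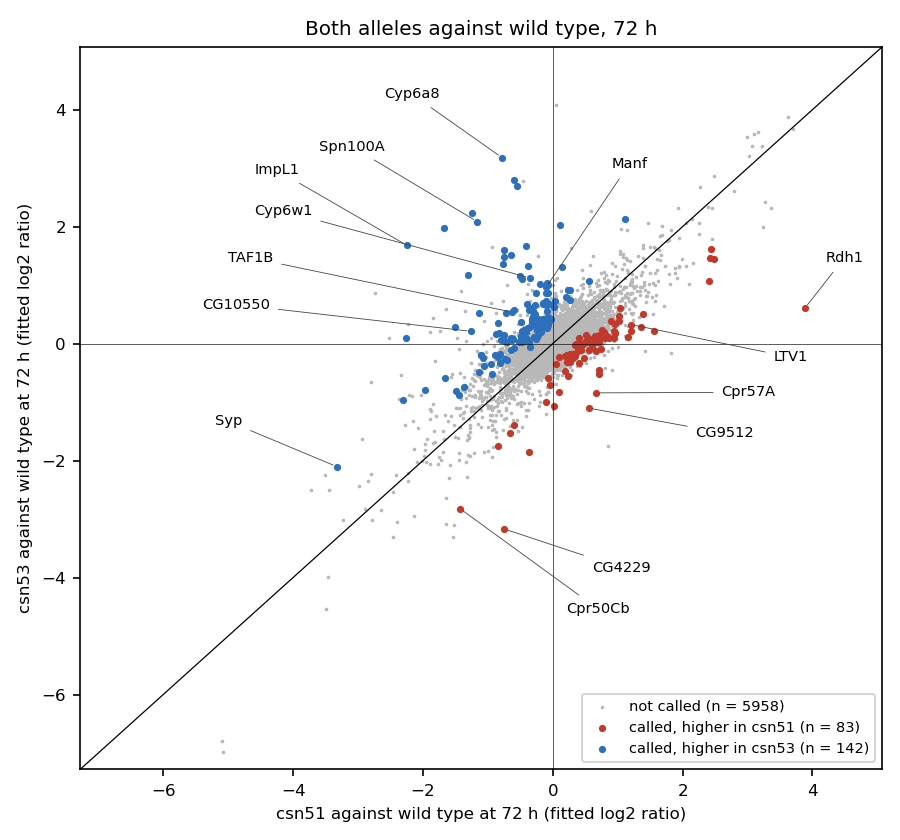
Fitted log2 ratio against wild type at 72 h in csn51 (x axis) and csn53 (y axis), 1 point per feature, with the 225 features called in the difference coloured and the diagonal marking equal ratios. Rdh1 lies far to the right at 3.88 and 0.61, and Cyp6a8 far above the diagonal at -0.78 and 3.18.

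Rdh1, a gene of the retinol dehydrogenase family, had the largest difference towards csn51 among the named genes. Its log2 ratios in csn51 were 3.95, 4.07, 3.53 and 3.80 on replicates 1 to 4, and in csn53 they were 0.77, 0.96, 0.34 and 0.35. Every csn51 array lay far above every csn53 array. The difference was 3.28 ± 0.39 (SE, n = 4 and 4, limma adjusted p = 3.9e-07), a ratio of 9.7 between the alleles. Rdh1 was called against wild type in csn51 (3.88 ± 0.28) and not in csn53 (0.61 ± 0.28, adjusted p = 0.0914). The difference was much the same at the other ages, at 3.25 ± 0.37 at 60 h and 3.74 ± 0.35 at 96 h, and it was called in all 12 other settings and without each of the 8 arrays. The mean ratio of Rdh1 at 72 h was 4.14 in csn4null and 1.68 in csn5null, or 2.34 without csn5null replicate 3.

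Cyp6a8, a cytochrome P450 gene of the family that handles foreign compounds, was higher in csn53. It was at -0.56, -0.80, -1.70 and -0.50 in csn51 and at 3.54, 3.28, 3.12 and 2.78 in csn53. All csn51 arrays were below 0 and all csn53 arrays far above it. The difference was -3.97 ± 0.57 (n = 4 and 4, limma adjusted p = 2.3e-05), 15.6-fold in favour of csn53, and -3.71 and -3.30 at 60 and 96 h. Cyp6a8 was called against wild type in csn53 (3.18 ± 0.40) and not in csn51 (-0.78 ± 0.40, limma adjusted p = 0.136). Its mean at 72 h was 5.57 in csn4null and 2.72 in csn5null, or 3.75 without csn5null replicate 3.

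Cyp6w1, another cytochrome P450 gene, followed Cyp6a8 on a smaller scale. Its values were -0.23, -0.24, -0.58 and -0.55 in csn51 and 1.36, 1.20, 0.96 and 0.97 in csn53, with no overlap. The difference of -1.47 ± 0.30 (limma adjusted p = 0.0049) had counterparts of -1.72 at 60 h and -1.59 at 96 h, each called. Of 31 measured P450 genes 0 were called higher in csn51 (1.34% of all features) and 5 higher in csn53 (16.1%, and 2.3% of all features), namely Cyp6a8, Cyp6w1, Cyp6d5 (-0.93 ± 0.23), Cyp9c1 (-0.66 ± 0.19) and Cyp4ad1 (-1.35 ± 0.40), and the median of the 31 was -0.06. Without the arrays numbered 4 the calls were 2, Cyp6a8 and Cyp6w1. Cyp6a19, with -1.52 ± 0.57, and Cyp4p2, with 1.22 ± 0.46, did not pass the test. Among glutathione transferase genes, whose enzymes couple glutathione to reactive compounds, GstE7 (-1.17 ± 0.31) and GstE13 (-0.66 ± 0.13) were higher in csn53. These were 2 of 10 measured (20.0%, against 2.3% of all features), with a median of -0.17 over the list. Without the arrays numbered 4 only GstE13 was called.

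TAF1B, which encodes a subunit of an initiation factor of RNA polymerase I, was lower than wild type in csn51 and higher in csn53. In csn51 it was at -0.57, -0.66, -0.52 and -0.59, and in csn53 at 0.50, 0.45, 0.60 and 0.60. The values within an allele lay close together and the groups far apart. The difference of -1.16 ± 0.13 (limma adjusted p = 3.1e-07) was matched by -0.99 at 60 h and -1.03 at 96 h, and both alleles were called against wild type, at -0.62 ± 0.09 and 0.54 ± 0.09. Its mean ratio at 72 h was 0.33 in csn4null and 0.00 in csn5null, or -0.06 without csn5null replicate 3.

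CG9512 moved in opposite directions as well, with higher values in csn51. It was at 0.65, 0.79, 0.97 and -0.11 in csn51 and at -1.23, -1.67, -0.59 and -0.92 in csn53, so that only csn51 replicate 4 came near the csn53 arrays. The difference was 1.66 ± 0.23 (limma adjusted p = 6.4e-06), 1.89 at 60 h and 1.90 at 96 h. Of the 12 features called in opposite directions 10 have a gene name. Higher in csn53 were also CG8460 (-0.85 ± 0.16), CG11836 (-1.16 ± 0.28), Cnx99A (-0.64 ± 0.16), a calnexin that holds new glycoproteins in the endoplasmic reticulum, and, named after its value was seen, Uch-L5 (-0.63 ± 0.15), a ubiquitin hydrolase that docks on the proteasome. Higher in csn51 were the cuticle protein gene Cpr57A (1.5 ± 0.22), CG5597 (0.73 ± 0.16), Vha55 (0.39 ± 0.10), a subunit of the proton-pumping V-ATPase, and milt (0.42 ± 0.09), the milton adaptor of mitochondrial transport, also named after its value was seen.

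Nup44A, which encodes a protein of the nuclear pore, was at 0.96, 0.88, 1.23 and 1.54 in csn51 and at -0.01, 0.06, 0.32 and 0.08 in csn53. The groups stood well apart. Its difference of 1.05 ± 0.25 (limma adjusted p = 0.0124) was 1.39 at 60 h and 1.68 at 96 h, and at 72 h it was not called without csn51 replicate 4 (adjusted p = 0.0667). CG10550 was at -1.20, -1.21, -1.30 and -1.32 in csn51 and at -0.03, 0.49, 0.43 and -0.04 in csn53. It differed by -1.47 ± 0.17 (limma adjusted p = 3.1e-07) and by -1.34 ± 0.15 at 96 h, and at 60 h by -0.38 ± 0.16, which was not called. Rdh1, Cyp6a8, TAF1B and CG10550 were the 4 named genes among 5 features called in all 12 other settings and without each array in turn.

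Syp, which encodes an RNA-binding protein that helps set the timing of neural stem cell divisions, was far below wild type with both alleles. It was at -3.58, -3.64, -3.15 and -2.80 in csn51 and at -2.61, -2.70, -1.34 and -1.76 in csn53. All 8 arrays were low, and those of csn51 were lower than those of csn53 by a margin of 0.10 at the closest. The difference was -1.22 ± 0.27 (limma adjusted p = 0.0083), lost without csn53 replicate 3 or 4 (highest adjusted p = 0.0562). LTV1, which acts in the assembly of the small ribosomal subunit, was at 1.19, 1.21, 1.26 and 1.19 in csn51 and at 0.62, 0.27, 0.24 and 0.17 in csn53. Its difference was 0.89 ± 0.20 (limma adjusted p = 0.00766). nbs, whose protein works at broken DNA ends, was above wild type with both alleles and more so in csn51, with a difference of 0.62 ± 0.14. It was the only called gene of 15 in DNA damage response and apoptosis (6.67%, against 1.34% of all features called higher in csn51).

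**Figure D2:**
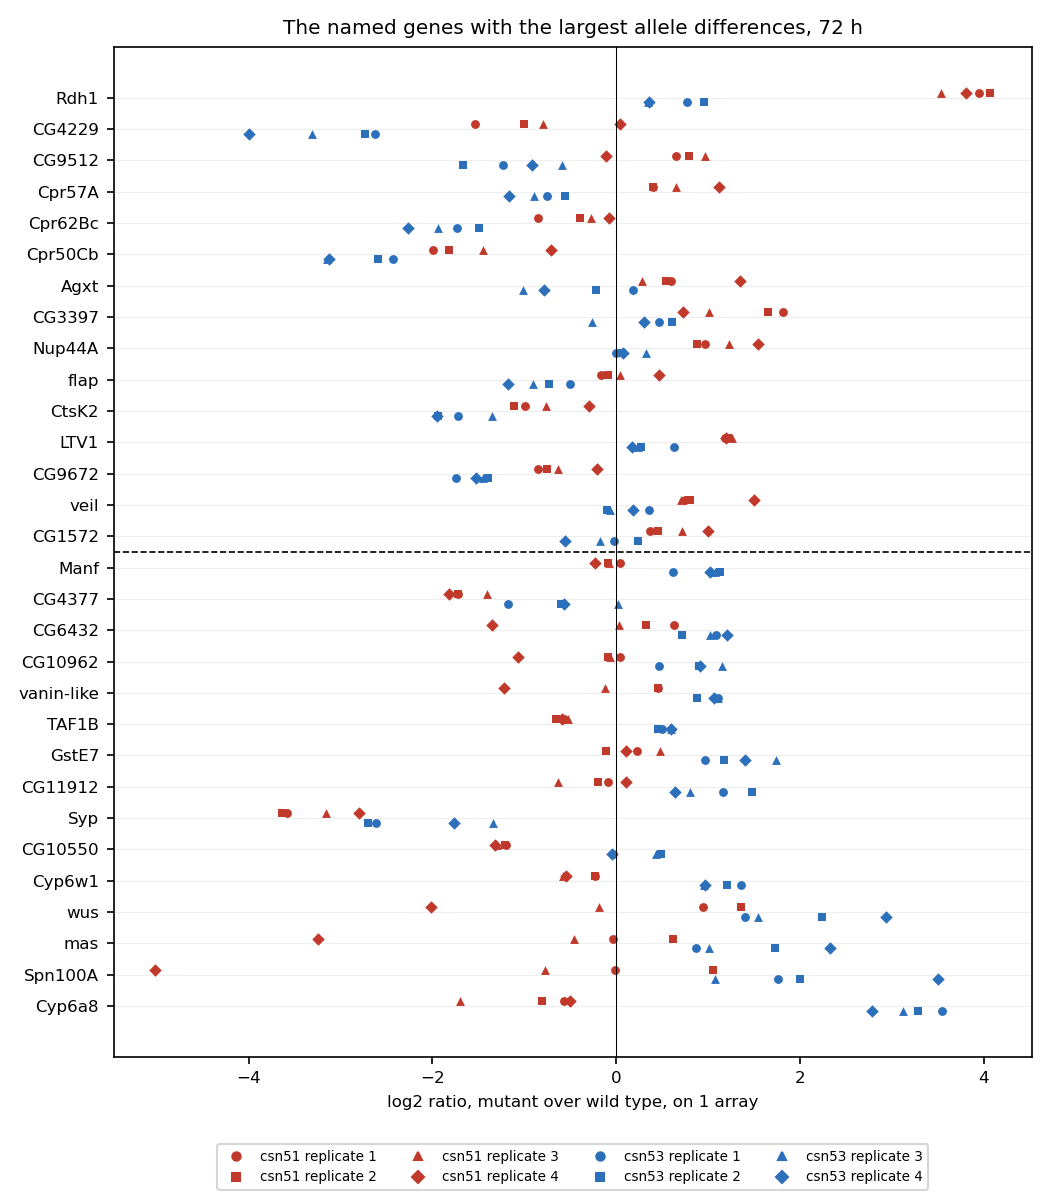
Log2 ratio of mutant over wild type on each of the 8 arrays (x axis) for the 15 named genes with the largest called difference in each direction whose arrays do not overlap, csn51 in red and csn53 in blue, with 1 symbol per replicate. In Rdh1, TAF1B and LTV1 the 4 symbols of an allele lie close together, while in mas, Spn100A and wus the csn51 replicate 4 symbol lies at -3.25, -5.02 and -2.02, well below the other 3.

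The difference in the mutated gene itself was not called. CSN5 was at -0.01, -0.20, -0.10 and -0.20 in csn51 and at 0.00, 0.50, 0.27 and 0.23 in csn53. The groups do not overlap, but the difference of -0.47 ± 0.47 did not pass the test (limma adjusted p = 0.663), and with the arrays of these 2 groups alone it was -0.38 (adjusted p = 0.216). Neither allele was called against wild type, at -0.22 and 0.25, against a mean of -2.94 in csn5null, or -3.82 without its replicate 3. The spread of CSN5 is estimated over all arrays, the csn5null arrays with little loss of CSN5 included. Without csn5null replicate 3 at 72 h, replicate 3 at 96 h and replicate 5 at 60 h the adjusted p was 0.334.

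Of the other subunits, alien, which encodes CSN2, was at -0.16, -0.18, -0.12 and -0.35 in csn51 and at -0.03, 0.52, 0.28 and 0.21 in csn53, a difference of -0.44 ± 0.13 (limma adjusted p = 0.0436). It was the 1 called of 5 measured subunit genes (20.0%, against 2.3% of all features called higher in csn53). The call is one of the weakest named here, kept without 1 of the 8 arrays and lost without any of the other 7. CSN4 (0.17 ± 0.21), CSN1b (-0.14 ± 0.11) and CSN7 (-0.10 ± 0.16) did not pass. Among 15 genes for cullins, neddylation enzymes and cullin ligase factors 1 passed, Cul6 (6.67%, against 2.3% of all features called higher in csn53). It was at 0.27, 0.17, 0.18 and 0.26 in csn51 and at 0.47, 0.64, 1.84 and 0.74 in csn53. The difference was -0.69 ± 0.20 (limma adjusted p = 0.0379). Left out singly, only 2 of the 8 arrays kept the call, with differences from -0.85 to -0.36 (highest limma adjusted p = 0.318). Without the arrays numbered 4 it was -0.76 and not called (limma adjusted p = 0.131). The scaffold genes Cul1 (0.01 ± 0.13), Cul3 (-0.11 ± 0.14) and Cul4 (-0.09 ± 0.10) did not pass, and the median of the 15 was -0.12 against 0.00 over all features.

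All 17 measured genes of the 26S proteasome, the protease that degrades ubiquitin-tagged proteins, had a negative difference, with a median of -0.29, and over all tested features 3084 of 6183 were negative. The test was passed by 3 of the 17 (17.6%, against 2.3% of all features called higher in csn53), the lid and base subunits Rpn5 (-0.44 ± 0.10), Rpt5 (-0.40 ± 0.11) and Rpn7 (-0.29 ± 0.09), with limma adjusted p-values of 0.0109, 0.0246 and 0.0414. Rpn5 was at 0.14, 0.13, -0.28 and -0.33 in csn51 and at 0.36, 0.63, 0.21 and 0.33 in csn53, so the groups were separate but close. The count of 3 was 0 without the arrays numbered 4, without csn51 replicate 4, on Cy5 arrays alone and in a fit of the 8 arrays with or without a dye term, with medians from -0.30 to -0.20. The arrays' medians over the 17 genes lay between -0.41 and 0.04 in csn51 and between -0.10 and 0.29 in csn53 and overlapped. At 60 h the median difference was -0.04 and at 96 h -0.16, with 0 members called at either age.

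Many genes of the early secretory pathway were higher in csn53. In this pathway new proteins enter the endoplasmic reticulum through the Sec61 channel, lose their signal peptide, receive sugar chains, fold with the help of chaperones and leave in vesicles for the Golgi. These genes were noticed among the calls, and 5 lists of them were then written from what their products do, so their counts describe these arrays and are no independent evidence. Of the 72 measured members 24 were called higher in csn53 (33.3%, against 2.3% of all features) and 0 in csn51 (1.34% of all features), and 66 had a negative difference, with a median of -0.37 against 0.00 over all features. The medians of the 72 genes on the single arrays were -0.07, -0.18, -0.25 and -0.29 in csn51 and 0.16, 0.05, 0.09 and 0.31 in csn53. By this median every csn51 array thus lay below every csn53 array. In the list of degradation and stress response taken alone, the array medians of the alleles overlapped slightly.

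Chaperones and other folding factors of the endoplasmic reticulum had 10 of their 15 measured members called (66.7%, against 2.3% of all features), with a median of -0.62. Manf, a small protein of the endoplasmic reticulum related to mammalian neurotrophic factors, was at 0.04, -0.08, -0.08 and -0.23 in csn51 and at 0.62, 1.13, 1.07 and 1.02 in csn53. The csn51 arrays were near wild type and the csn53 arrays all above it. The difference was -1.06 ± 0.19 (limma adjusted p = 0.00107), called without each of the 8 arrays in turn and, at -1.0, without both arrays numbered 4. CaBP1, a protein disulfide isomerase, was at 0.04, 0.00, 0.00 and -0.36 in csn51 and at 0.61, 0.62, 0.73 and 0.80 in csn53, a difference of -0.76 ± 0.15 (limma adjusted p = 0.00234). Gp93, the Hsp90 of this compartment, differed by -0.74 ± 0.21, with csn53 replicate 2 at -0.61 among the csn51 values, and Cnx99A by -0.64 ± 0.16. The gene sel was lower than wild type in csn51, at -1.15, -1.11, -1.15 and -0.93, and nearer to it in csn53, at -0.43, 0.17, -0.18 and -0.32.

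In the other secretory lists 30.0%, 27.8%, 23.5% and 16.7% were called, in the order below, against 2.3% of all features. In translocation and signal peptide removal 3 of 10 members were called, and all 10 were negative. The called members were Sec61alpha (-0.67 ± 0.18), the channel itself, Spase25 (-0.56 ± 0.14), a subunit of the signal peptidase, and Tapdelta (-0.62 ± 0.18), a channel-associated protein. For N-glycosylation 5 of 18 were called, among them GCS2beta (-0.65 ± 0.15), the beta subunit of glucosidase II, Alg9 (-0.55 ± 0.13), a mannosyltransferase, and OstDelta (-0.57 ± 0.15) and Ostgamma (-0.54 ± 0.15), subunits of the oligosaccharyltransferase. Among 17 genes of vesicle transport 4 were called, loj (-0.86 ± 0.20), a cargo receptor of the p24 family, the lectin ergic53 (-0.64 ± 0.18), the retrieval receptor KdelR (-0.55 ± 0.13) and the coat subunit epsilonCOP (-0.50 ± 0.14), and all 17 were negative. Degradation and stress response had 2 called of 12, Der-1 (-0.49 ± 0.14) and Npl4 (-0.38 ± 0.10). The kinase PEK, the transcription factor Atf6 and the membrane protein Herp of the stress response did not pass, Herp at 0.33.

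The called members of the secretory lists rested on the arrays numbered 4, while the median of -0.37 kept its sign and was smaller without them. The lists were written after calls on these same arrays were seen, so a median kept on fewer of them is no independent evidence. Without these 2 arrays 2 of the 72 were called, Manf and sel, and the median was -0.30. Left out singly, csn53 replicate 4 reduced the 24 calls to 4 with a median of -0.32, csn51 replicate 4 reduced them to 5 with -0.33, csn53 replicate 3 to 10 and csn51 replicate 3 to 11. In a fit of the 8 arrays alone 3 were called without a dye term, 0 with one and 0 with replicate number as a block, with a median of -0.36 in each. At the other ages the median was -0.03 at 60 h, with 0 called and 41 of 72 negative, and -0.21 at 96 h, with 2 called and 63 of 72 negative.

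**Figure D3:**
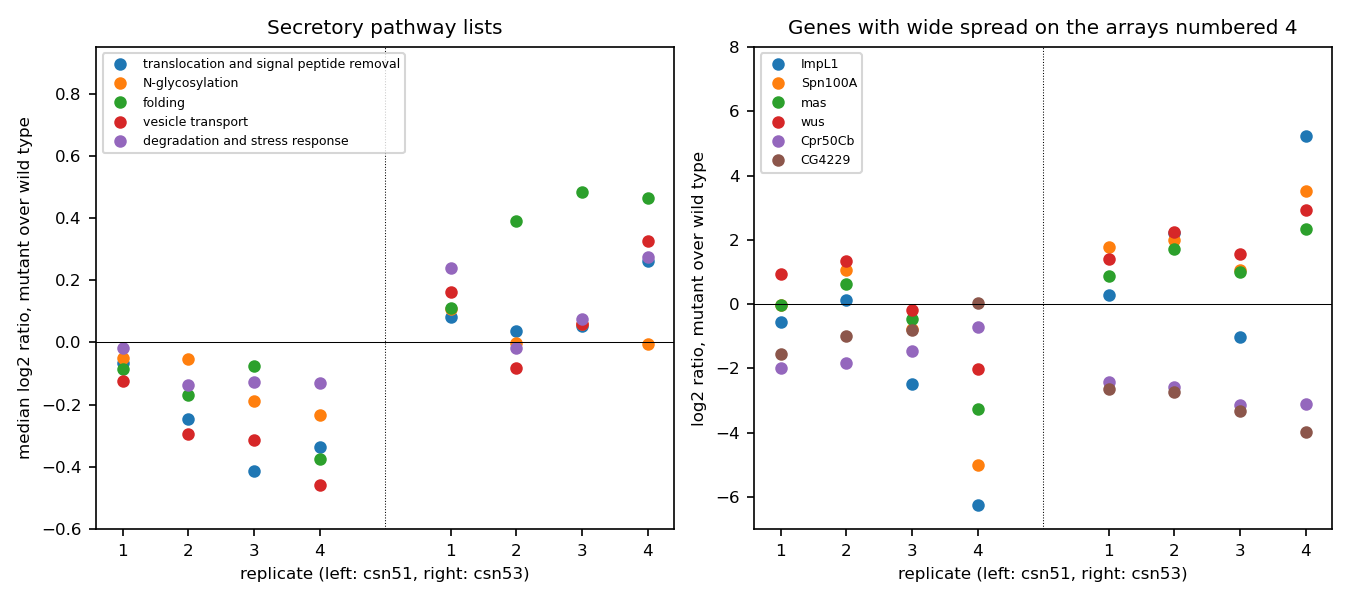
Left, median log2 ratio on each array of the 5 secretory pathway lists, and right, log2 ratio of 6 single genes, with csn51 replicates 1 to 4 left of the dotted line and csn53 replicates right of it. The folding list lies at or below -0.08 on all csn51 arrays and at or above 0.11 on all csn53 arrays, while ImpL1 runs from -6.24 on csn51 replicate 4 to 5.25 on csn53 replicate 4.

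Some large differences came with wide spreads within each allele, and the genes described next were chosen for that after their values were seen. ImpL1, an ecdysone-inducible gene, was at -0.54, 0.12, -2.48 and -6.24 in csn51 and at 0.28, 2.2, -1.01 and 5.25 in csn53. The groups overlap, and replicate 4 was the lowest array of the one and the highest of the other. The difference of -3.92 ± 1.04 (limma adjusted p = 0.0253) was -1.37 without the 2 arrays numbered 4 and no longer called (adjusted p = 0.625).

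Spn100A, a serine protease inhibitor gene, was at -0.02, 1.06, -0.78 and -5.02 in csn51 and at 1.77, 2.0, 1.07 and 3.51 in csn53, and differed by -3.25 ± 0.73 (limma adjusted p = 0.00848). Its groups just failed to overlap, and without the arrays numbered 4 the difference was -1.5 (adjusted p = 0.334). mas, an extracellular serine protease homologue needed for muscle attachment, and wus, a membrane protein with a J domain that acts in the clearance of liquid from the tracheal tubes, had differences of -2.23 ± 0.48 and -1.92 ± 0.46 and of -1.12 and -0.91 without these arrays, where neither was called. The ecdysone-inducible gene ImpE3 differed by -1.05 ± 0.26 with all arrays, with csn51 replicate 4 at -2.16 and the other csn51 arrays between -0.54 and -0.34, and by -0.55 without these arrays.

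Several cuticle, apical matrix and ecdysone-regulated genes split the 2 arrays numbered 4 in the same way and were not called. TwdlW, a tweedle cuticle protein gene, was at -5.2 on csn51 replicate 4 and at 2.52 on csn53 replicate 4, while both arrays numbered 3 were low, at -6.07 and -7.32. On the 2 arrays numbered 4, Osi14 was at -4.68 and 3.08, dyl, which shapes the apical matrix of the epidermis, at -4.6 and 3.36, and ImpE2 at -4.68 and 3.97. Their differences of -0.94 ± 1.10, -1.41 ± 1.15, -2.25 ± 0.74 and -2.57 ± 0.96 had adjusted p-values from 0.0771 (dyl) to 0.718 (TwdlW).

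Of 14 measured tweedle and Cpr cuticle protein genes 3 were called higher in csn51 (21.4%, against 1.34% of all features) and 0 higher in csn53, and 9 differences were positive and 5 negative. Cpr57A was at 0.40, 0.40, 0.65 and 1.12 in csn51 and at -0.75, -0.56, -0.89 and -1.17 in csn53, without overlap. Its difference of 1.5 ± 0.22 (limma adjusted p = 2.3e-05) was called without each array in turn and without both arrays numbered 4 (1.24, adjusted p = 0.00634). Cpr62Bc was at -0.85, -0.40, -0.27 and -0.08 against -1.73, -1.49, -1.94 and -2.27, and Cpr50Cb at -2.0, -1.82, -1.44 and -0.71 against -2.43, -2.59, -3.14 and -3.12. Both were lower than wild type on all 8 arrays and less so in csn51, with differences of 1.5 ± 0.39 and 1.39 ± 0.35 (limma adjusted p-values of 0.0214 and 0.0196) that were lost without either replicate 4 and without csn53 replicate 3, and in Cpr62Bc also without csn51 replicate 3. The median of the list was 0.42, and it was 0.16 without csn51 replicate 3 and 0.92 without csn51 replicate 1. CG4229, second by size among the named genes called higher in csn51, was at -1.54, -1.01, -0.80 and 0.04 in csn51 and -2.63, -2.73, -3.31 and -3.99 in csn53, and its difference of 2.41 ± 0.70 (limma adjusted p = 0.0419) was lost without any 1 of 6 arrays. The chitinase gene Cht2 was higher in csn51 by 0.66 ± 0.18 and was not called without the arrays numbered 4 (adjusted p = 0.34). It was the 1 call among 20 genes of chitin metabolism and the moulting fluid (5.0%, against 1.34% of all features called higher in csn51).

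Of the called features as a whole, csn51 replicate 4 was the csn51 array farthest from csn53 in 124 of 225 (55.1%), and in 35.1% of all features. Among the csn53 arrays replicate 4 was the farthest from csn51 in 91 (40.4%), and in 19.7% of all features.

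Lists of metabolism and growth held calls at about the share of all features, 5 among 110 members of 6 lists (4.55%, against 3.64%). Each of the 5 lost its call without the arrays numbered 4. Gpdh1, glycerol-3-phosphate dehydrogenase, which links sugar breakdown to lipid synthesis, was at -0.44, -0.48, 0.06 and -0.34 in csn51 and at 0.13, 0.11, 1.16 and 0.82 in csn53, a difference of -0.87 ± 0.20 (limma adjusted p = 0.00989) and the 1 call among 18 genes of sugar metabolism. Acox57D-d, an acyl-CoA oxidase of peroxisomes, differed by -0.61 ± 0.16, 1 of 20 lipid genes, and ND-15, a subunit of respiratory complex I, by -0.43 ± 0.11, 1 of 16 respiratory chain genes. The list medians were -0.01, -0.10 and -0.07. The iron storage gene Fer1HCH was higher in csn51 by 0.39 ± 0.10, 1 of 11 oxidative stress genes. Of 18 mitochondrial ribosomal protein genes 0 were called, although 17 were negative, with a median of -0.26. Cdk4 was the 1 called of 27 cell cycle and replication genes, at -0.60 ± 0.18, and the list's median was -0.29.

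In the remaining lists 0 to 2 members were called. Over all features 1.34% were called higher in csn51 and 2.3% higher in csn53. Ugt36E1, a UDP-glycosyltransferase gene, was the 1 call of 8 in its family, whose median was -0.28, and Rdh1 the 1 call of 12 genes of retinoid, juvenile hormone and pigment metabolism, with a median of -0.05. ImpL1 and ImpE3 were the 2 calls among 14 genes of the ecdysone response (14.3%), with a median of 0.00. Of 16 genes for heat shock proteins and chaperones, with a median of 0.07, 2 were called (12.5%), Gp93 and Cnx99A of the endoplasmic reticulum. No gene passed among 5 measured cytosolic ribosomal protein genes, with a median of 0.08, or 5 genes of the clock and light response, with a median of -0.13.

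Marker lists of tissues had few calls or none. The values are ratios, so the presence of a tissue in the extracts cannot be read from them, and a change in the number of cells of a type cannot be told apart from a change of RNA per cell. No gene was called among 11 haemocyte and melanization genes, 9 midgut enzyme genes, 13 nervous system genes, 6 male germline genes, 12 immune genes or 13 autophagy genes, whose medians were -0.11, -0.28, 0.23, 0.05, 0.12 and 0.33. The nervous system list was positive in 12 of its 13 members, with array medians from 0.22 to 0.36 in csn51 and from -0.11 to 0.14 in csn53. At 60 and 96 h the median difference of this list was 0.02 and -0.01. All 8 genes listed for salivary gland, trachea and Malpighian tubule were positive, with a median of 0.37. Of these 2 were called (25.0%, against 1.34% of all features higher in csn51), the V-ATPase subunits Vha100-2 (0.79 ± 0.17) and Vha55. The list's array medians were between -0.05 and 0.24 in csn51 and between -0.59 and -0.13 in csn53. Its median difference was -0.10 at 60 h, with 1 of 8 positive, and -0.04 at 96 h, with 3 of 8. In muscle Msp300, a giant protein that anchors nuclei, was the 1 call of 13 (7.69%, against 1.34% of all features higher in csn51), at 0.55 ± 0.15. The parts that such shifts have in the other differences were not tested.

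**Figure D4:**
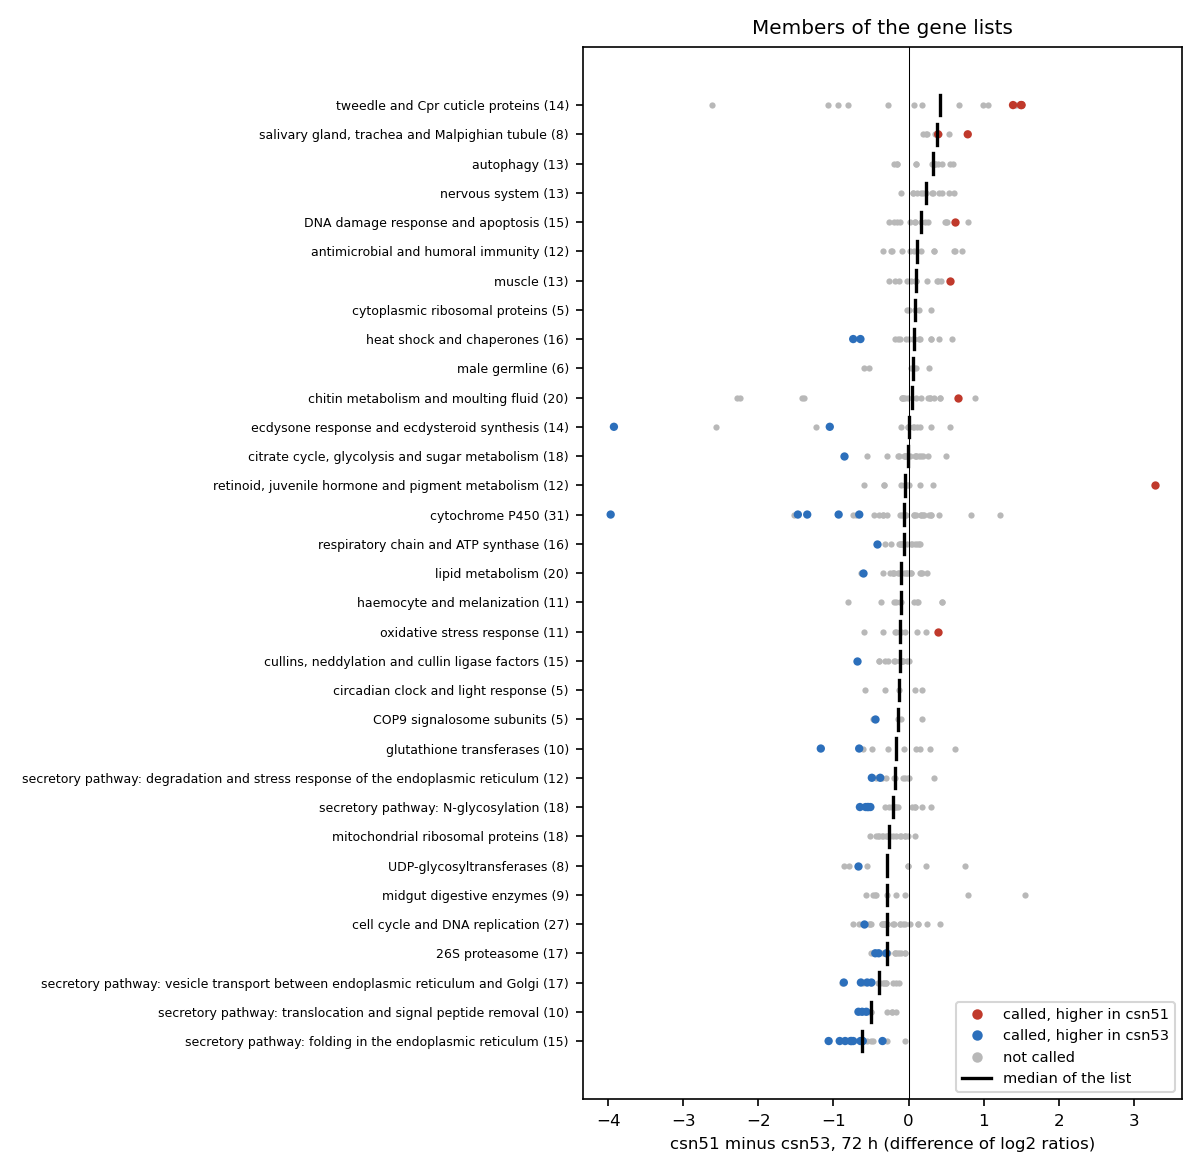
Difference csn51 minus csn53 at 72 h on the log2 scale for the members of each gene list, with the number measured in brackets, coloured where called and with a black bar at the list's median. The lowest medians of single lists, -0.62, -0.50 and -0.40, belong to folding, translocation and vesicle transport in the secretory pathway, and the highest, 0.42, to tweedle and Cpr cuticle proteins.

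The differences were followed at the other 2 ages, which rest on other arrays. The same contrast was called for 12 of 6186 features at 60 h (0.194%), 5 higher in csn51 (0.0808%) and 7 higher in csn53 (0.113%). At 96 h it was called for 243 of 5931 (4.1%), 118 higher in csn51 (1.99%) and 125 higher in csn53 (2.11%). Of the 83 features higher in csn51 at 72 h, 61 had that sign at 60 h (73.5%, and 52.2% over all features) and 70 at 96 h (84.3%, and 47.6%). Of the 142 higher in csn53, 93 kept the sign at 60 h (65.5%, and 47.8%) and 119 of 139 at 96 h (85.6%, and 52.4%). Called again in the same direction were 3 of the 83 and 6 of the 142 at 60 h, and 13 of the 83 and 25 of the 139 at 96 h, and 0 were called in the opposite direction. The median difference of the features higher in csn53 was -0.09 at 60 h and -0.27 at 96 h, and that of the features higher in csn51 was 0.07 and 0.19.

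Of the 225 features, 9 were called in the same direction at all 3 ages, and 7 of these have a gene name. They are Rdh1, CG9512 and Nup44A, higher in csn51, and Cyp6a8, Cyp6w1, Cyp9c1 and TAF1B, higher in csn53. Cyp9c1 differed by -0.78 ± 0.18 at 60 h, -0.66 ± 0.19 at 72 h and -0.94 ± 0.17 at 96 h. Other genes called at 72 h were not called at 60 or 96 h, such as Manf (-0.07 and -0.28), flap (-0.09 and -0.10), mas (0.16 and -0.27), Spn100A (0.24 and -0.66) and CG4229 (-0.75 and -0.10). The test of the 72 h difference against the mean of the other 2 ages called 0 of 5931 features in limma, with 569 (9.59%) at an unadjusted p under 0.05, so no gene is shown to differ by age. For Manf that contrast was -0.89 (adjusted p = 0.163) and for CG4229 2.84 (adjusted p = 0.275).

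**Figure D5:**
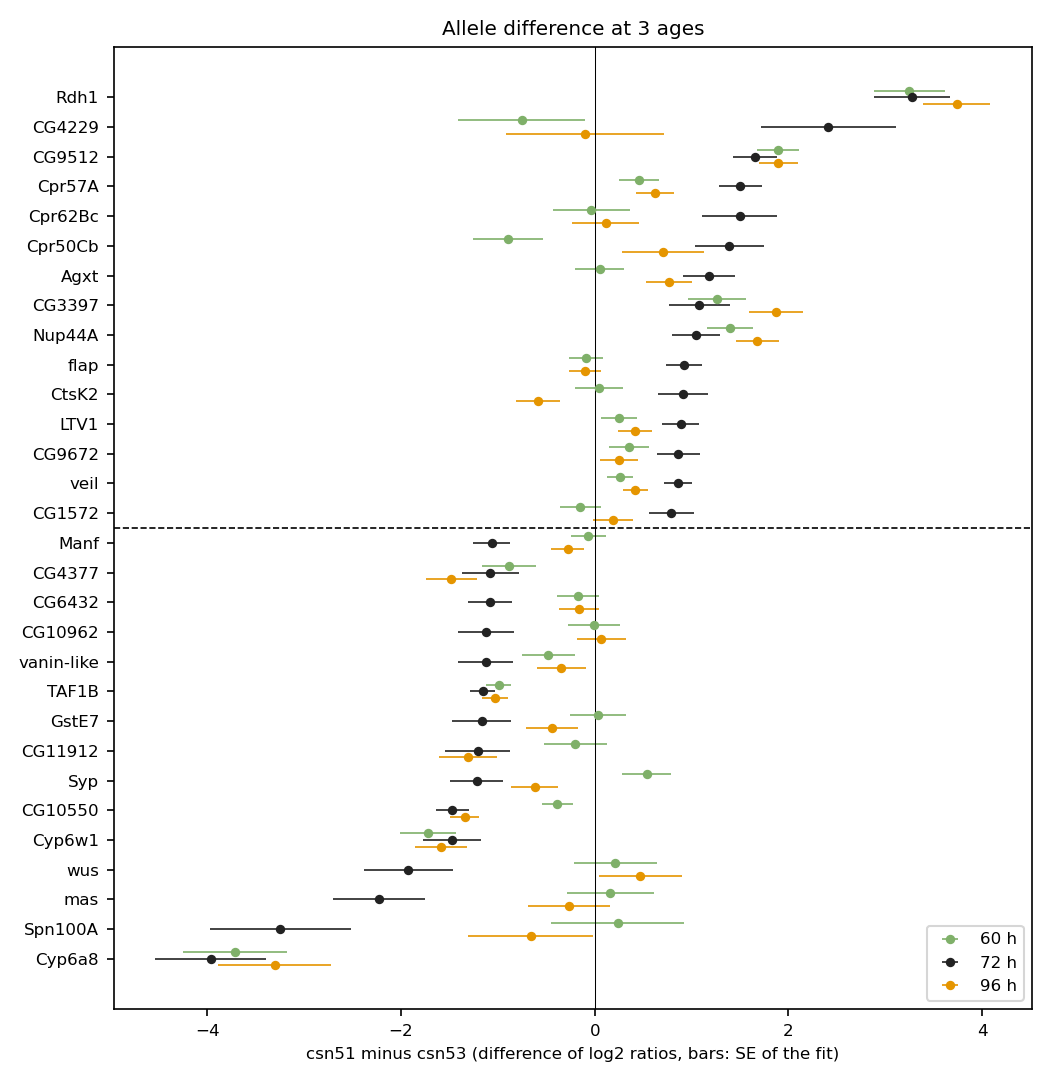
Difference csn51 minus csn53 on the log2 scale, with the standard error of the fit as bars, at 60, 72 and 96 h for the 30 genes of the plot of values by array. Rdh1, CG9512, Nup44A, TAF1B, Cyp6w1 and Cyp6a8 lie at similar values at the 3 ages, while mas lies at 0.16, -2.23 and -0.27 and CG4229 at -0.75, 2.41 and -0.10.

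The genes that lie next to CSN5 were also examined. Among the 10 measured genes on each side in the order of the RefSeq assembly Release 6 plus ISO1 MT, 1 of 20 was called (5.0%), and this was Manf. Among 50 on each side 5 of 100 were called (5.0%) and among 100 on each side 6 of 200 (3.0%), against 3.64% of all features. Over all neighbouring pairs of measured genes, 9 of 4615 pairs had both members called, 6 of them in the same direction.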

How the data were processed

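The authors deposited 1 table of log ratios between the array channels, read here as log2. How it was background-corrected and normalized, and the base of its logarithm, the sources used here do not say. The largest absolute value was 10.4, and a natural logarithm would change every log2 value by 1 common factor and no test. All signs were turned to mutant over wild type (see the direction given above). RNA was extracted with TRIZOL and labelled through amino-allyl nucleotides, per the labels.

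Of 6621 entries, 5072 had 1 gene symbol, 176 several and 1373 none in the platform annotation, and 4993 were matched to RefSeq (Release 6 plus ISO1 MT), used for names and gene order. After 32 controls and 28 entries without a value were left out and entries of a gene averaged (324 genes), 6187 features remained, 4698 named. A feature was tested with values on at least 2 arrays of each group. The model had a term for each of 12 groups and 1 for the dye over 51 arrays, and was fitted by lmFit and eBayes of limma 3.58.1 (R 4.3.3, statmod 1.5.0, prior df 3.34, prior SD 0.235), with Benjamini-Hochberg adjustment over all tested features and a threshold of 0.05. P-values rest on the spread between arrays within the 12 groups, over all 51 arrays, and not on that of the compared arrays alone.

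The alleles compared, the 30 gene lists and the rule for named genes were chosen with earlier results of these data known, and 5 further lists of the secretory pathway after the values were seen. One of the 30, salivary gland glue, had 0 measured genes, and the larval serum protein list had 2, of which 0 were called. The rule takes the COP9 subunits, the 15 largest called differences each way with at least 3 arrays per group and no overlap, up to 6 genes called in opposite directions, up to 4 per list by adjusted p, and called genes among the 10 neighbours of CSN5 on each side. Members of the secretory lists and milt, Uch-L5, Cyp4ad1, Cyp4p2, Cyp6a19, TwdlW, Osi14, Cul1, Cul3 and Cul4 fall outside it and were chosen after their values were seen.

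Replicate numbers are shared by the groups and by the wild-type labels. Deviations from the group means of same-numbered csn51 and csn53 arrays at 72 h correlated at 0.24, 0.17, 0.61 and -0.33. These values do not settle whether the numbers pair the samples, and the main fit did not pair them. On simulated data for this contrast, with 6183 genes, the fit recovered 18 of 50 genes changed by 0.5, 44 of 50 by 1, 48 of 50 by 2 and 49 of 50 by 3 on the log2 scale, and 3 of 162 calls (1.85%) were false. The simulated noise was independent between genes and the same on every array. The real arrays were not equally alike, so the 1.85% is no estimate of the false share among the calls made on them. Alternatives were no dye term, the arrays of the groups alone with and without a dye term, centred or scaled arrays, array weights, entries not averaged by gene, only features valued on all arrays of the groups, a random or fixed replicate block, 3 csn5null arrays left out and each array left out in turn. Cy5 arrays alone and both arrays numbered 4 left out were added after the data were seen. Figures were drawn with matplotlib 3.10.9 in Python 3.11.15.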

Additional observations from a re-analysis of the deposited data

Results flagged for a closer look

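Over 312 groups of 4 arrays (156 genes and 2 alleles), 21 held 1 array far from the other 3 by Dixon's test of the gap over the range, and chance gives about 1 in 20 such groups. Of these 12 were in csn51, 7 of them on replicate 4, and 9 in csn53. On csn51 replicate 4 they were Cht10 at -2.70 (other arrays 0.34 to 0.48), ImpE3 at -2.16, CG10962 at -1.07, sel at -0.93, CaBP1 at -0.36, tn at 0.32 and veil at 1.51 (others 0.71 to 0.80). On csn51 replicate 3 they were Atg2 at -0.46, Nrg at 0.71 and Pdp1 at 0.11, and on csn51 replicate 2 Uba3 at -0.35 and GNBP2 at -0.39. In csn53 jet stood out on replicate 4 at 2.35 (others -0.01 to 0.25) and GLaz on replicate 3 at -1.93 (others 0.21 to 0.45). On csn53 replicate 2 LManV was at -2.78, Idh3b at -1.09, Gp93 at -0.61 and Vha26 at -0.53. On csn53 replicate 1 they were RpS15Ab at -0.30, Cnx99A at -0.0695 and pr at -0.67. Among the genes of the report this touches the calls of sel, CaBP1, veil, ImpE3, CG10962, Gp93 and Cnx99A. Of these, sel, CaBP1 and veil were called without each array in turn.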

How the results depend on the processing

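The count of calls between the alleles at 72 h, 225 in the fit of all arrays, depended on how the spread was estimated. It was 1044 with array weights, 459 without 3 csn5null arrays, 34 on Cy5 arrays, 29 without both arrays numbered 4, 24 and 6 on the arrays of the 2 groups without and with a dye term, and between 62 and 368 without 1 array. With replicate number as a fixed block on these arrays it was 8, and 227 with a random block (correlation 0.01). Whether same-numbered arrays also share a wild-type extract is not stated. Among the csn53 arrays, 2 of 4 csn51 arrays correlated best with their own number by log ratios, and 1 of 4 by deviations from the group means. Against wild type, csn51 gave 747 calls on its own arrays with a dye term and otherwise between 1545 and 2997, and csn53 gave 662 on Cy5 arrays and 959 and 1104 on its own arrays without and with a dye term, against 2134 and 1854 with all arrays. At 60 h the 12 calls were 44 with array weights, 7 on own arrays, 6 after scaling, 3 with the fixed block and 2 on Cy5 arrays, with 7 to 13 without 1 array. At 96 h the 243 were 586 with array weights, 397 without 3 csn5null arrays, 153 with a value on every array, 98 on Cy5 arrays, 46 and 40 on own arrays without and with a dye term, 40 after scaling, 20 with the fixed block, and 181 to 321 without 1 array. The contrast between ages gave 219 calls with array weights, 10 after scaling, 1 without a dye term and 0 to 10 without 1 array. Array weights were highest for csn51 replicate 1 (2.84) and csn53 replicate 4 (2.66) and at most 1.30 for the other 6. Of 72 named called genes, 0 changed sign under any alternative, and 14 were called without both arrays numbered 4. CSN5 was not called under any, at -0.62 to -0.33 without 1 array. Depth and signal over background were not used here, since the table holds ratios alone.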
